A study of Mus musculus with 18 samples.

Results

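The cytosolic ribosome is built from ribosomal RNA and a fixed set of proteins, one of each in nearly every case, and the genes of those proteins are examined here in the adult mouse heart after deletion of Srf and under phenylephrine. Members were taken from the array's gene symbols: Rpl or Rps with a number and an optional a, l or x, together with Rplp0, Rplp1, Rplp2, Rpsa and Fau, leaving out pseudogenes, mitochondrial ribosomal proteins and the S6 kinases. The rule found 47 genes among the 18194 named by probe sets with a single symbol. Each gene was read from the brightest of its probe sets, a probe set being the group of short probes that reports 1 transcript. Of the 47, 45 passed the filter on dim signal and were tested, and Rpl39l and Rps16 did not. A further 29 genes of the same naming, Rpl3 among them, are read only by probe sets that also carry another gene's symbol and have no value of their own here.

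Small subunit proteins (Rps genes, Rpsa and Fau) surround the site where the messenger RNA is decoded, and large subunit proteins (Rpl genes) surround the site where peptide bonds form, with the acidic stalk of Rplp0, Rplp1 and Rplp2 recruiting the factors that drive each step. Most of their transcripts are known to begin with a run of pyrimidines, through which growth signals acting via mTOR raise or lower their translation together, often without a change in transcript level. In the heart, growth under alpha-1 adrenergic stimulation is accompanied by more ribosomes and more protein synthesis. Striated muscle also expresses Rpl3l, a paralogue of Rpl3 that replaces it in part of the ribosomes.

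Cardiac ventricles of 18 male mice, 10 weeks old and of the strain given as CR7BL6, were each measured on 1 array, and the titles call the replicates biological. All mice, controls included, had been given 0.7 mg of tamoxifen on 3 days, which switches on the recombinase. Control mice were littermates with the SRF-flex2neo allele, in which the Srf gene can be cut out. SRFHKO mice lose Srf after tamoxifen; it encodes serum response factor, which drives genes of the contractile apparatus and of the response to growth signals. The promoter behind their recombinase was not given in the sources used here. Hearts were taken at day 8 after tamoxifen from 2 control and 4 SRFHKO mice, and at day 25 from 3 mice in each of 4 groups. Those 4 groups were control and SRFHKO, either untreated or given phenylephrine (PE), which stimulates alpha-1 adrenergic receptors, at 80 mg/kg/day by minipump from day 10. The series asks how loss of Srf changes expression in the adult heart, at baseline and under PE.

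Arrays differed in overall brightness before they were scaled to a common level: the group averages of the trimmed mean signal were 131 and 133 at day 8. At day 25 they lay between 57.3 and 79.9, and SRFHKO arrays were brighter on average than control arrays. Correlations between arrays were 0.913 to 0.955 over probe sets, and no pair of arrays was identical. The brighter Srf probe set differed by -0.06 ± 0.19 (SE) between SRFHKO and control at day 25 without PE (limma adjusted p = 0.902). A second, dimmer one was there at 6.09, 5.97 and 6.12 in control and at 5.85, 5.02 and 5.68 in SRFHKO hearts. At day 8 and with PE the genotypes overlapped in that second one. The place of both relative to the deleted part of the gene is unknown here, so neither checks the labels. Acta1, skeletal alpha-actin and a classical target of SRF, fell in SRFHKO hearts by 2.31 at day 8 and by 1.43 at day 25 on the log2 scale. All 10 cardiomyocyte markers listed passed the filter. Of 6 lymphocyte markers 1 passed the filter, and of 4 erythroid markers 1 did.

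The sequence at the start of transcription of these genes was searched for the run of pyrimidines. The RefSeq promoter table of mouse assembly GRCm38.p6 holds 41 of the 47 members. The search was for a C followed by at least 4 further pyrimidines (C or T) on the transcribed strand. Such a run began exactly at the annotated start in 9 members (22%), against 3.01% of the 27025 genes in the table. Within 5 bases of the start it was found in 20 members (48.8%), against 21.2% of all genes. The windows below reach from 15 bases before the start to 15 from the start onward, 30 in all, on the strand of the gene, with the run in capitals where there was one. The first 6 carry the run at the start itself, Rps9 and Rpl13a carry it displaced by a few bases, and Rpl6, Rps19 and Rpl3l, whose values recur in the comparisons, carry none there.
Fau, chr19:6057932-6057961, plus strand: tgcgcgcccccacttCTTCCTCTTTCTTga
Rps18, chr17:33955651-33955680, minus strand: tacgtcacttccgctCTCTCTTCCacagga
Rps10, chr17:27635230-27635259, minus strand: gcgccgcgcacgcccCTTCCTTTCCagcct
Rpl35, chr2:39005117-39005146, minus strand: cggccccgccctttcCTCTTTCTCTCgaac
Rps6, chr4:86857353-86857382, minus strand: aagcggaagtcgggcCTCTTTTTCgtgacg
Rplp2, chr7:141447636-141447665, plus strand: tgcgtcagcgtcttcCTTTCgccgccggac
Rps9, chr7:3704026-3704055, plus strand: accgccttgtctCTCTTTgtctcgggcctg
Rpl13a, chr7:45128731-45128760, minus strand: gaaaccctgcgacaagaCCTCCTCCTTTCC
Rpl6, chr5:121204486-121204515, plus strand: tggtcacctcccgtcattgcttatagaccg
Rps19, chr7:24884577-24884606, plus strand: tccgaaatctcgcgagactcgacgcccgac
Rpl3l, chr17:24727811-24727840, plus strand: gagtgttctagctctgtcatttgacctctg

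The DNA element that SRF binds, the CArG box, was searched on both strands of the 300 base promoter window (250 before the start, 50 after). It was found in 1 of the 41 members (2.44%), against 1.81% of all genes in the table. The member was Rpl10a, a protein of the large subunit, with the element at position -182 relative to its start. The stretch around it, with the element in capitals, is shown because it is the only such match among the members.
Rpl10a, chr17:28328269-28328318, plus strand: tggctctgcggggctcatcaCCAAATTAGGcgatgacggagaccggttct

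A match of letters is a description of the sequence and does not show that the site is bound. Rpl10a passed no test with the scaling used here, and passed at day 25 without PE with a scaling to a common median, given below.

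Levels are given throughout as log2 of the scaled signal plus 2, and differences as differences of those levels. Of the 45 measured members, 36 averaged 9 or more over the 18 arrays, a division by brightness drawn after the values were seen. The 9 dim members were Rpl12, Rpl14, Rpl27a, Rpl37, Rpl39, Rps4l, Rps6, Rps25 and Rps27. Brightness of a probe set depends on its probes, so it does not rank the transcripts. The bright members were the steadier: their residual SD within groups had a median of 0.11, against 0.34 for the dim members. For the 1641 other genes averaging 9 or more it was 0.14. Those genes were dimmer than the bright members, with array medians averaging 9.91 against 12.03 in untreated SRFHKO hearts of day 25. The 3 steadiest were Rps7 (0.05), Rps4x (0.06) and Rps14 (0.07), all of the small subunit. Rps27 varied most, with a residual SD of 0.88. The deviations of bright members from their group means moved together from heart to heart, with a median pairwise correlation of 0.46 over the 18 arrays and 92.5% of pairs above 0. For dim members that median was -0.03. Genes on the same array share its scaling, so these correlations describe the arrays as well as the genes.

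No ribosomal protein gene passed the test in any of the 7 comparisons. That test was limma with Benjamini-Hochberg adjustment over 12616 genes at a threshold of 0.05. Below it, with the common trimmed mean, the 45 genes lay on average higher in SRFHKO than in control hearts at day 8 (median 0.08). They were near 0 at day 25 without PE (median 0.02) and lower at day 25 with PE (median -0.14). PE itself went with a median of -0.01 in control hearts and -0.16 in SRFHKO hearts. Median scaling turned the day 8 median to -0.05 and that of PE in control hearts to 0.14. Quantile normalization turned that of genotype with PE to 0.01. Both genotype contrasts of day 25 share their groups with the PE contrasts, so these medians are not independent of each other. The median half-width of the 95% interval was 0.20 for a bright member in a contrast of day 25 and 0.58 for a dim member, so differences of the size of these medians could not be resolved gene by gene.

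**Figure D1:**
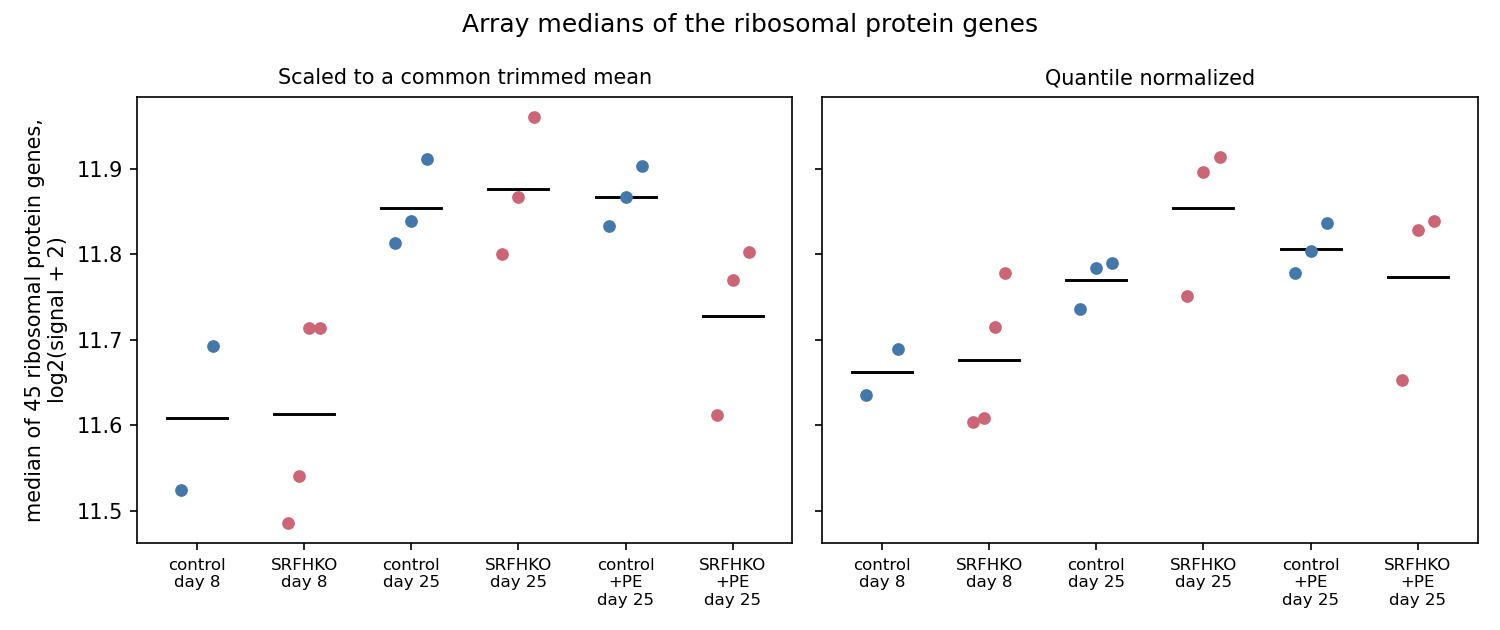
Median level over the 45 ribosomal protein genes on each array, as log2(signal + 2), by group; each point is 1 heart, the bar is the group mean, blue is control and red SRFHKO. With scaling to a common trimmed mean (left) the 3 SRFHKO hearts with PE lie between 11.61 and 11.80 and the 3 controls with PE between 11.83 and 11.90, while after quantile normalization (right) those groups overlap.

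With the common trimmed mean, the PE response of SRFHKO hearts, PE against no PE at day 25, held the most uniform pattern. After quantile normalization and median scaling it did not. The interaction of PE and genotype then had 37 and 41 negative members, against 35 and 38 in the PE response of SRFHKO hearts. Median scaling made genotype at day 25 without PE the most uniform contrast, with only 2 members lower. With the trimmed mean, 41 of the 45 members had a negative difference, where 51% of all genes did, and the median was -0.16 against -0.01 over all genes. None of the 45 passed the test, against 0.262% of all genes. At an unadjusted p under 0.05 there were 9 members, all lower, or 20% against 5.24% of all genes lower by that rule. In 21 members every PE heart lay below every untreated SRFHKO heart (background 8.39%), and in 0 members above (background 8.65%). The 22 genes of the small subunit had a median of -0.17 and the 23 of the large subunit one of -0.15. The 1641 other genes averaging 9 or more, which were dimmer than the bright members, had a median of -0.05.

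Rpl3l, the muscle paralogue of Rpl3, had the largest of these differences. Its level was 10.85, 10.80 and 10.61 in untreated SRFHKO hearts and 10.04, 10.15 and 10.42 in those given PE. The lowest untreated heart was above the highest treated one. The difference was -0.56 ± 0.14 (SE, n = 3 and 3, limma adjusted p = 0.101), with a 95% interval of -0.84 to -0.27. In control hearts the levels were 10.75, 10.37 and 10.40 without PE and 10.43, 10.50 and 10.41 with it, so the groups overlapped and the difference was -0.06 ± 0.14. The interaction of PE and genotype was -0.49 ± 0.19 (limma adjusted p = 0.600). Leaving out each of the 6 SRFHKO hearts in turn gave -0.66 to -0.47, with a smallest limma adjusted p of 0.0721.

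Rpl6, a protein of the large subunit, stood at 11.82, 11.82 and 11.80 in untreated SRFHKO hearts and at 11.63, 11.44 and 11.57 with PE. The difference of -0.27 ± 0.08 did not pass (limma adjusted p = 0.195). In control hearts Rpl6 was at 11.65, 11.63 and 11.79 without PE and at 11.68, 11.75 and 11.74 with PE, which overlap. Its SRFHKO hearts thus lay above all controls without PE and below all controls with PE. The interaction of -0.30 ± 0.12 did not pass either (limma adjusted p = 0.600).

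Rps4x, the X-linked form of a small subunit protein, was at 12.22, 12.23 and 12.22 in untreated SRFHKO hearts and at 12.02, 11.96 and 12.10 with PE. Its spread was among the smallest of all members, and the difference was -0.20 ± 0.07 (limma adjusted p = 0.274), or -0.10 after quantile normalization. It was lower with PE in control hearts as well, at 12.22, 12.18 and 12.22 without PE and 12.05, 12.12 and 12.17 with it, with no overlap there either. The 4 members that were not lower under PE in SRFHKO hearts were Rplp0, Rps6, Rps25 and Rpl39, of which Rpl39 had the largest difference, 0.41 on the log2 scale. Only Rplp0 of these is bright.

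**Figure D2:**
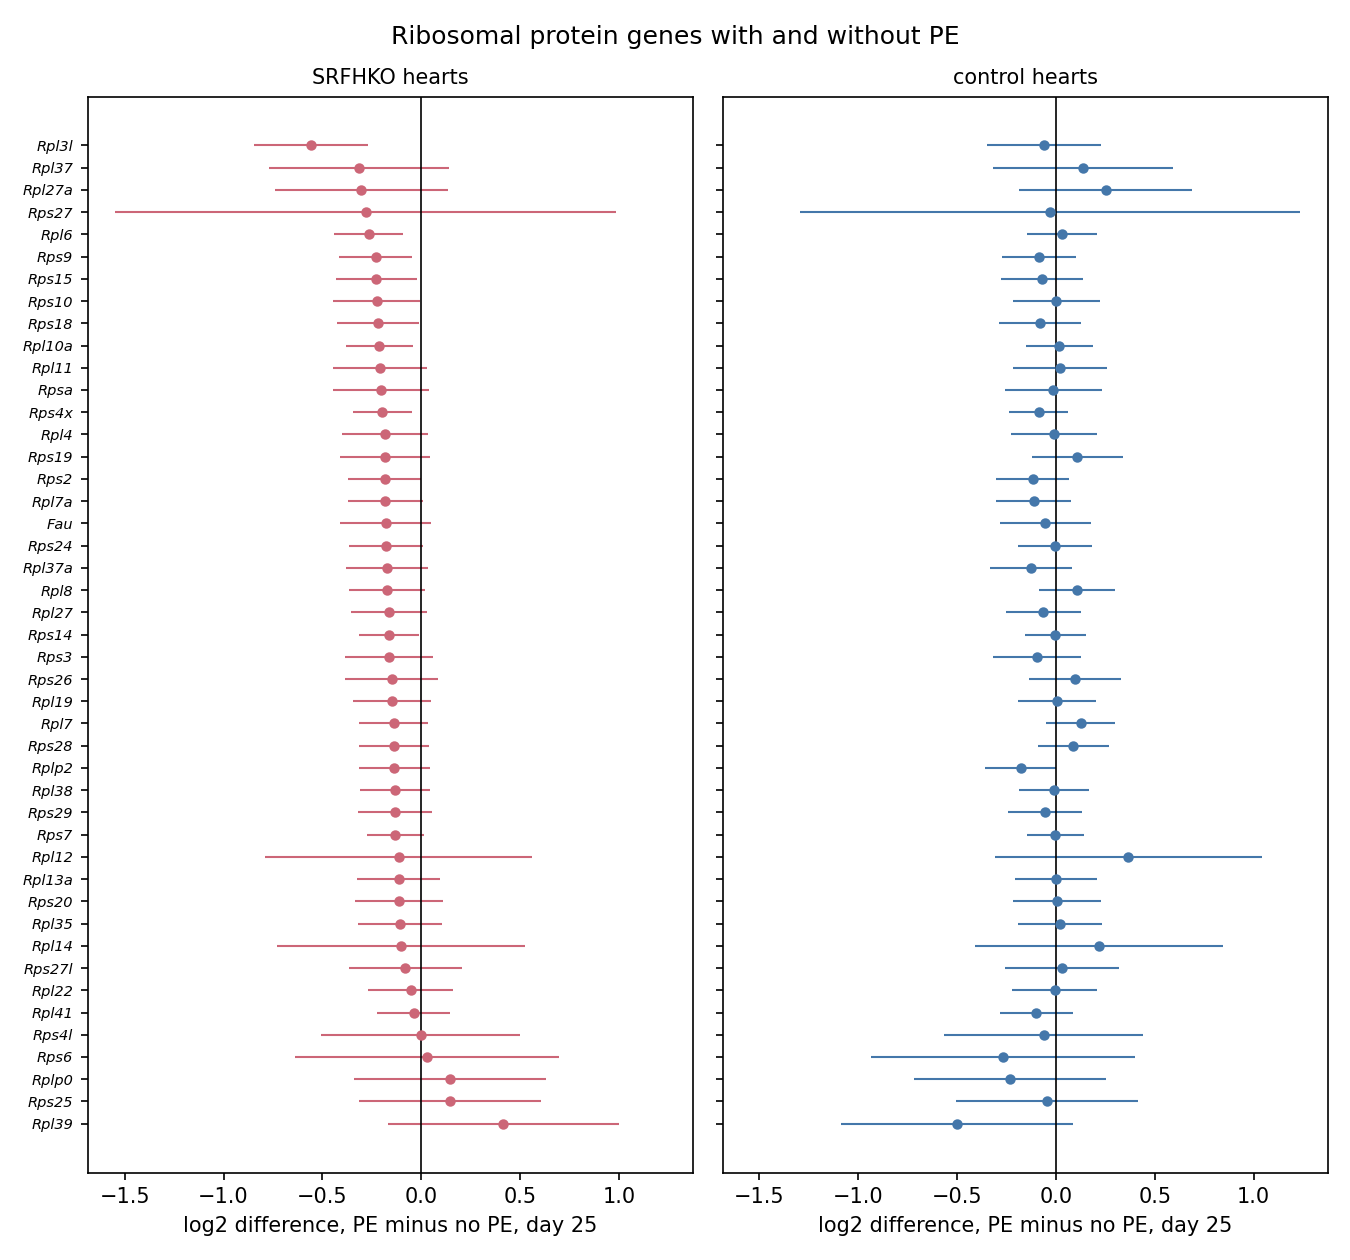
Difference between PE and no PE at day 25 for each of the 45 ribosomal protein genes, in log2 units with the 95% interval, in SRFHKO hearts (left, red) and control hearts (right, blue), ordered by the SRFHKO value. In SRFHKO hearts 41 points lie below 0 and in control hearts 27, and the dim genes such as Rps27 have the widest intervals.

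Cell type markers are given beside this pattern. Summed signal of the 10 cardiomyocyte markers was 82426 to 99120 in untreated SRFHKO hearts and 80934 to 86533 with PE, overlapping, with all 10 lower and a median difference of -0.14. That of the 8 fibroblast markers was 5466 to 8362 without PE and 8158 to 12128 with PE, and Postn, a matrix protein of activated fibroblasts, rose by 1.83 ± 0.34 (limma adjusted p = 0.0254). The part of these markers in the ribosomal protein values was not tested. In whole ventricle, fewer cells of a type and less transcript per cell cannot be told apart.

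In control hearts PE went with no common direction among the members with the common trimmed mean. Their median was -0.01 against -0.03 for all genes, with 27 of 45 lower where 55% of all genes were. None passed the test (background 0.0396%), and 1 reached an unadjusted p under 0.05 where 10.5% of all genes did. In 4 members every PE heart was lower (background 8.68%) and in 2 higher (background 5.93%). Median scaling left only 4 of 45 lower, with a median of 0.14 against 0.12 for all genes, and quantile normalization left 18 lower. Rplp2, an acidic protein of the ribosomal stalk, was the member with the smallest p. It measured 12.58, 12.47 and 12.66 without PE and 12.36, 12.37 and 12.45 with PE, a difference of -0.18 ± 0.09 (limma adjusted p = 0.473), which was -0.02 with median scaling. Rpl39, a small protein of the exit tunnel, overlapped between the groups, at 6.90, 7.23 and 7.78 without PE against 6.78, 7.12 and 6.50 with it, and Rpl7 differed by 0.12 ± 0.08. The difference of Rpl39 was -0.50. It ran from -0.70 without the first untreated control to -0.26 without the third, and was -0.05 with shared probe sets added, while median scaling gave 0.28 for Rpl7. The interaction of PE and genotype had a median of -0.14 over the members against 0.03 over all genes, and 38 of 45 were negative where 46.7% of all genes were. No member passed that interaction (background 0.0238%), and 5 had an unadjusted p under 0.05 where 7.46% of all genes did. Besides Rpl3l and Rpl6 the rule names Rpl39 there, with 0.91 ± 0.39 (limma adjusted p = 0.632). That value was 0.57 without the first untreated SRFHKO heart, 1.21 without the third, and -0.07 with shared probe sets added.

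The genotype contrast at day 25 with PE set SRFHKO hearts given PE against control hearts given PE. The members' median was -0.14 against -0.0042 over all genes, and 38 of 45 were lower where 50.5% of all genes were. None of the 45 passed the test, against 1.66% of all genes, and the smallest limma adjusted p was 0.181. At an unadjusted p under 0.05 there were 6, all lower, or 13.3% against 7.58% of all genes lower. In 17 members every SRFHKO heart lay below every control heart (background 10.5%), and in 0 above (background 9.71%).

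Rps14, a protein of the small subunit's platform, measured 12.71, 12.73 and 12.77 in control and 12.54, 12.48 and 12.57 in SRFHKO hearts with PE. The groups did not overlap and the difference was -0.20 ± 0.07 (limma adjusted p = 0.181). After quantile normalization the difference of Rps14 was 0.04, the opposite sign. Rps9, also of the small subunit, was at 11.72, 11.58 and 11.68 in control and 11.53, 11.33 and 11.44 in SRFHKO hearts, a difference of -0.23 ± 0.09 (limma adjusted p = 0.216), which became 0.75 with the mean of its probe sets. Rpsa, which doubles as a laminin receptor, was at 11.97 in 2 control hearts and slightly higher in the other, against 11.81, 11.43 and 11.86. The lowest of these, the second SRFHKO heart with PE, sets much of its difference of -0.28 ± 0.12, which was -0.15 without that heart and -0.15 with median scaling. Fau, made as a fusion of a ubiquitin-like protein with the small subunit protein eS30, was at 11.42 in all 3 control hearts and at 11.36, 11.14 and 11.27 in SRFHKO hearts. Those groups do not overlap, and the difference was -0.17 ± 0.11 (limma adjusted p = 0.523).

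The direction of this contrast depended on how arrays were brought to a common level. With quantile normalization the members' median was 0.01 and 20 of 45 were lower, and with array brightness as a covariate it was -0.05 and 32 were lower. Scaling to a common median moved the median of all genes to 0.12, and the members lay 0.13 below it, as they did in the values given above. For PE in SRFHKO hearts the sign held under the same settings: the median was -0.07 with 35 lower after quantile normalization, -0.13 with the brightness covariate and -0.10 with median scaling. SRFHKO arrays with PE were brighter than control arrays with PE before scaling, at 75.9 to 85.4 against 52.5 to 75.3.

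**Figure D3:**
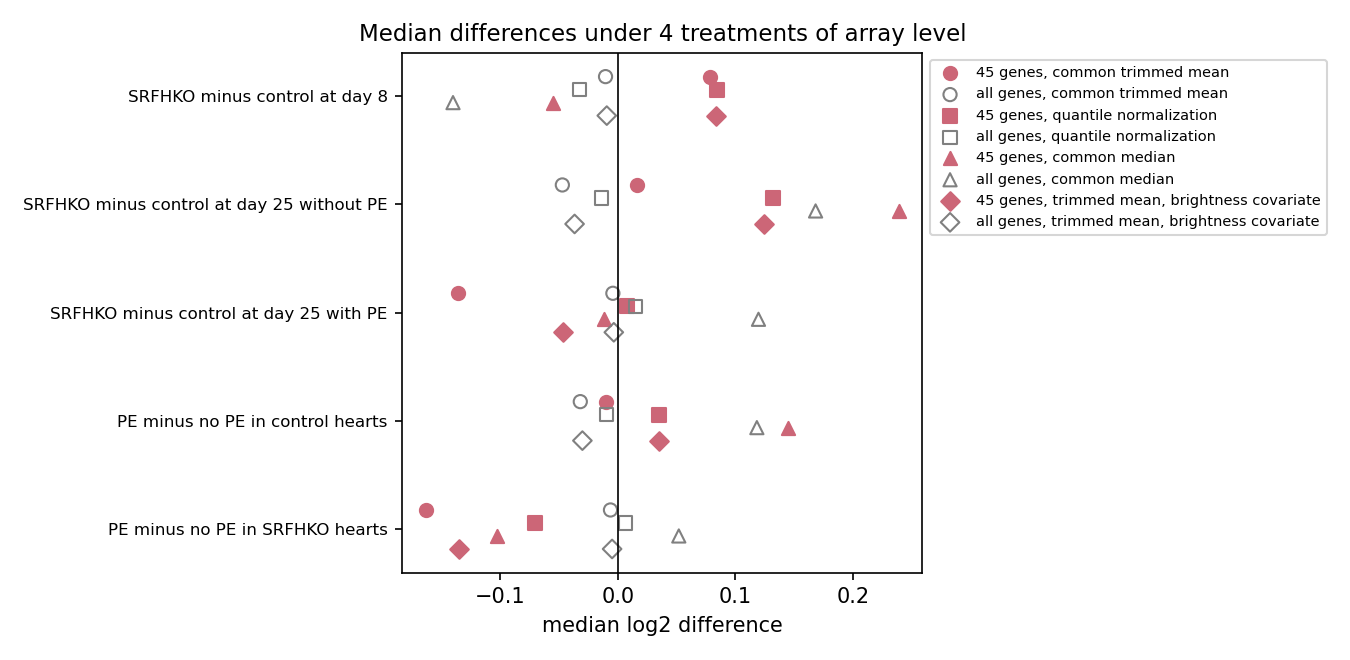
Median log2 difference over the 45 ribosomal protein genes (filled red) and over all genes tested (open grey) in 5 contrasts, with marker shape giving the treatment of array level. For PE in SRFHKO hearts all 4 red markers lie below 0, from -0.16 to -0.07, whereas for SRFHKO against control with PE they run from -0.14 to 0.01.

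Without PE at day 25 the split of the members between genotypes depended on how arrays were brought to a common level. With the common trimmed mean the median was 0.02 against -0.05 for all genes, and 24 of 45 were higher where 44.2% of all genes were. Of the 45, 21 were lower with that scaling, 10 after quantile normalization, 7 with brightness as a covariate and 2 with median scaling. The members' median lay above that of all genes in each case, by 0.06, 0.15, 0.16 and 0.07. None passed the test, against 2.48% of all genes, with a smallest limma adjusted p of 0.160, and 4 reached an unadjusted p under 0.05 where 18.4% of all genes did. In 6 members every SRFHKO heart was higher (background 9.22%) and in 1 lower (background 12.6%). Rps19, the small subunit protein mutated in Diamond-Blackfan anaemia, was at 10.84, 10.64 and 10.83 in control and 11.16, 11.08 and 10.86 in SRFHKO hearts, a difference of 0.26 ± 0.11 (limma adjusted p = 0.211). Rplp2 went the other way, with 12.45, 12.38 and 12.25 in SRFHKO hearts, all below its controls, and a difference of -0.21 ± 0.09 (limma adjusted p = 0.186). Median scaling gave 0.01 for Rplp2, the brightness covariate -0.10 and quantile normalization -0.06 (limma adjusted p = 0.723). Rpl39 had the smallest p of the members and overlapped: 5.86, 6.66 and 7.14 in SRFHKO hearts, a difference of -0.75 ± 0.28 (limma adjusted p = 0.160). It was -0.40 without the first SRFHKO heart and -1.04 without the third, and -0.10 when probe sets shared with other genes were added, an alternative chosen after seeing the data.

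Scaling to a common median changed the count of calls in that contrast. It moved the median of all genes to 0.17, with 6.74% of genes called, and 5 members then passed, all higher in SRFHKO hearts. They were Rps19 (0.48 ± 0.12), Rpl6 (0.34 ± 0.09), Rps7 (0.36 ± 0.10), Rpl11 (0.37 ± 0.11), which restrains the p53 inhibitor MDM2 when it is free of the ribosome, and Rpl10a (0.30 ± 0.09). Quantile normalization gave a median of 0.13 and the brightness covariate 0.12, and neither gave a call.

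At day 8, before PE, 28 of 45 members were higher in SRFHKO than in control hearts (48.3% of all genes were), with a median of 0.08 against -0.01 for all genes. None passed the test, against 0.0634% of all genes. At an unadjusted p under 0.05 there were 13, all higher, or 28.9% against 4.19% of all genes higher by that rule. In 11 members all 4 SRFHKO hearts lay above both controls (background 9.10%) and in 2, Rpsa and Rps25, below (background 9.67%). The 23 genes of the large subunit had a median of 0.12 and the 22 of the small subunit one of 0.01. Median scaling turned the members' median to -0.05 with 26 lower, and moved that of all genes to -0.14, so that the members lay 0.09 above all genes under both scalings. Setting aside probe sets of type x_at, whose probes may bind several genes, gave 0.18.

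Other measures of the arrays also separated the day 8 groups. The ratio of 3′ to 5′ Gapdh probe signal, a measure of RNA integrity, was 1.02 and 1.01 in the controls and 0.850 to 0.936 in SRFHKO hearts. Signal of the 18S ribosomal RNA probe set was 2426 and 3069 against 705 to 1402. The summed fibroblast markers were at 8367 and 13283 against 5557 to 8027, and the summed smooth muscle markers at 2245 and 2041 against 1323 to 1489. None of these overlapped, and their part in the ribosomal protein values was not tested. Of the 8 fibroblast markers 6 were lower in SRFHKO hearts, with a median difference of -0.64. Of the 4 smooth muscle markers only 2 were lower, with a median of -0.0076, so the lower sum was not shared by all of them.

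Rps9 had the smallest p. Its level was 10.81 and 10.80 in the controls and 11.20, 11.37, 11.16 and 11.15 in SRFHKO hearts, a gap wider than the spread within either group. The difference of 0.42 ± 0.09 did not pass (limma adjusted p = 0.151). It comes from the brightest probe set of Rps9 alone. In its other probe sets past the filter the day 8 groups overlapped. The x_at probe set of Rps9, averaging 9.06 over all arrays, gave 0.04 ± 0.91, with an SE that takes in its wide spread at day 25. The dimmest, averaging 3.99, gave 0.82 ± 0.43. Rpl41, the shortest ribosomal protein, was at 11.92 in both controls and 12.12, 12.26, 12.15 and 12.25 in SRFHKO hearts, a difference of 0.28 ± 0.09 (limma adjusted p = 0.383). It was 0.14 with median scaling. With x_at probe sets set aside Rpl41 gave 0.86, read from a dim probe set averaging 4.44 (SE 0.50 in the fit of all probe sets). Rps4l, a dim member, was at 6.56 and 7.04 against 7.50, 7.22, 7.65 and 7.72, a difference of 0.72 ± 0.25, which was 0.48 without the first control and 0.97 without the second. Rpsa ran against the majority, with 11.97 and 11.83 in controls and 11.58, 11.76, 11.68 and 11.66 in SRFHKO hearts, a difference of -0.23 ± 0.12 (limma adjusted p = 0.606). The 2 controls decide much of this contrast. Without the first the median was 0.19 and 1 member, Rps10, passed with 0.54 ± 0.11 (limma adjusted p = 0.0390, background 0.491%), and without the second it was -0.03.

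The same 3 genes led the interaction of day and genotype, in which no member and no gene at all passed (background 0%). At an unadjusted p under 0.05 limma gave 6 of the members and 11.3% of all genes in that interaction. Rps9 gave -0.50 ± 0.13 (limma adjusted p = 0.141), Rpl41 -0.39 ± 0.13 and Rps4l -0.94 ± 0.35. Rps9 turned to 0.59 with the mean of its probe sets, and median scaling gave -0.03 for Rpl41 and -0.59 for Rps4l. With x_at probe sets set aside Rpl41 was at -1.09, from the dim probe set averaging 4.44 (SE 0.69 in the fit of all probe sets). The interaction reuses the day 8 differences, so these values are not separate evidence.

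**Figure D4:**
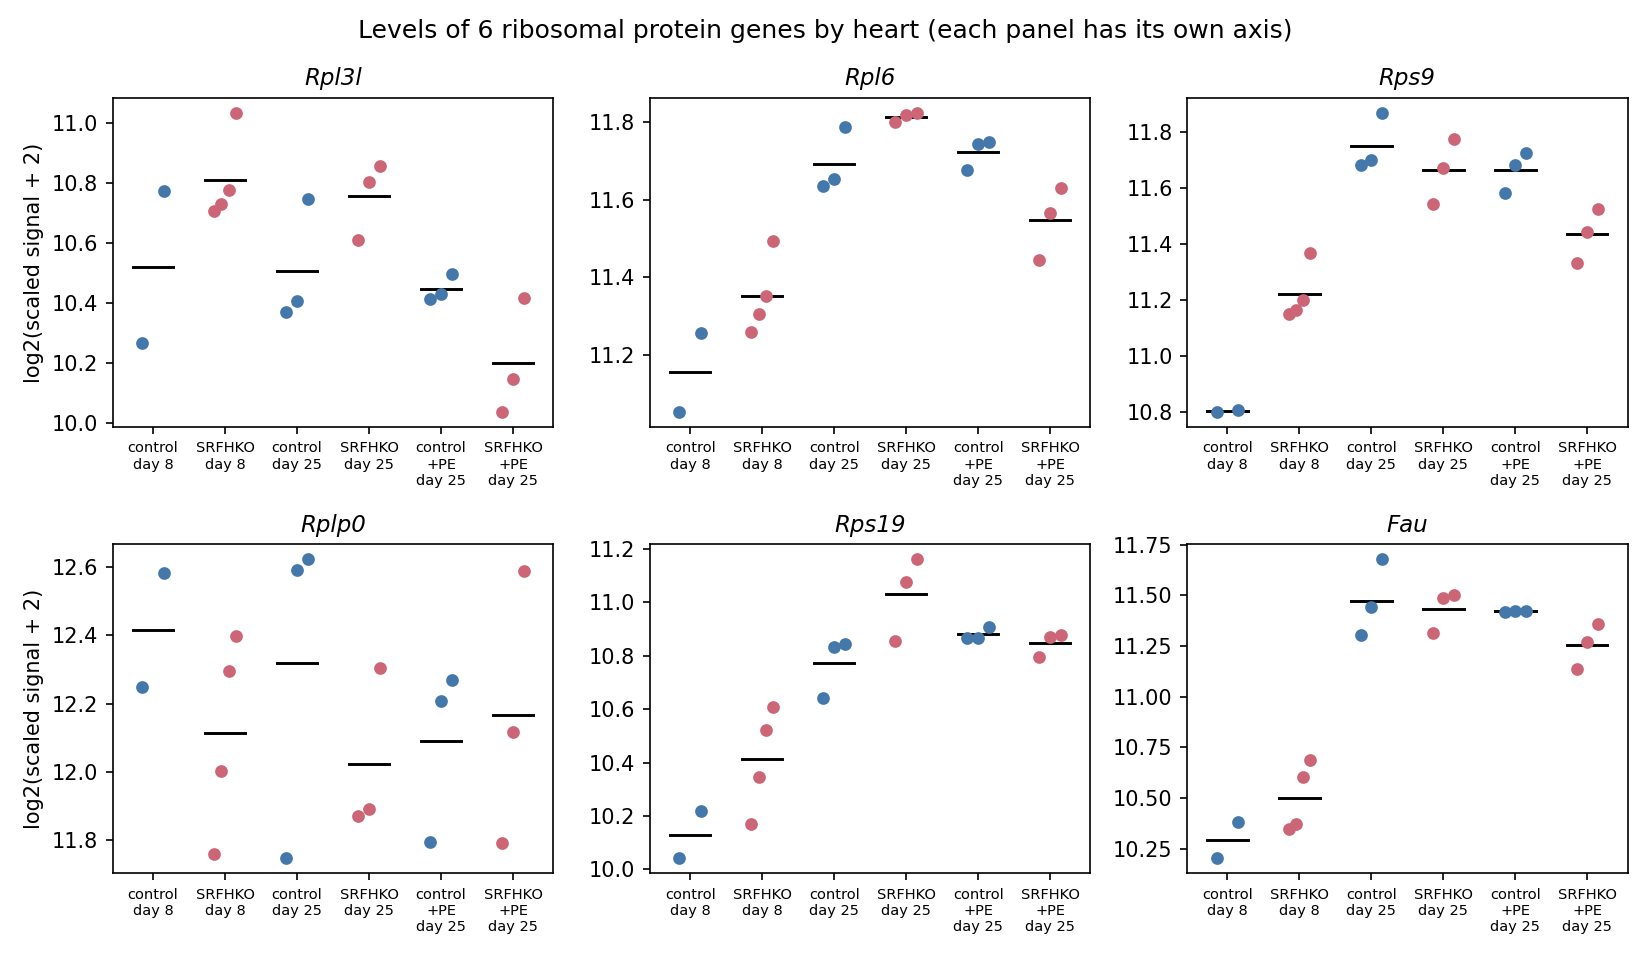
Levels of Rpl3l, Rpl6, Rps9, Rplp0, Rps19 and Fau in each heart as log2(scaled signal + 2), with the group mean as a bar, control in blue and SRFHKO in red; the axes differ between panels and do not start at 0. Rpl3l and Rpl6 are lowest among day 25 groups in SRFHKO hearts with PE, Rps9 is 10.80 to 10.81 in the day 8 controls, Fau is higher at day 25 than at day 8, and Rplp0 scatters within every group.

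The members often used as reference genes differed in steadiness. Rplp0, the stalk base protein, ranged from 11.75 to 12.62 over the 18 arrays with a residual SD of 0.34, the largest of the bright members. Its control hearts at day 25 alone were at 11.75, 12.59 and 12.62. Its differences were -0.30 ± 0.25 at day 8, -0.30 ± 0.23 at day 25 without PE and 0.08 ± 0.23 with PE, and none passed. Rpl13a had a residual SD of 0.12 and lay between 11.93 and 12.53, and Rps18 one of 0.12 between 11.92 and 12.46. For PE in SRFHKO hearts Rpl13a gave -0.11 ± 0.10 (limma adjusted p = 0.745) and Rps18 -0.22 ± 0.10 (limma adjusted p = 0.425).

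Rps6, the substrate of the S6 kinases, was read by a dim probe set between 5.55 and 7.28 on all arrays. Its largest difference was 0.51 ± 0.32 for genotype with PE (limma adjusted p = 0.494), and it overlapped between groups in every contrast. Rps27l, a paralogue of Rps27 that p53 induces, was at 9.91 and 9.88 in day 8 controls and at 10.09, 9.97, 10.10 and 10.57 in SRFHKO hearts. That difference was 0.29 ± 0.14 (limma adjusted p = 0.582), and at day 25 the groups overlapped. Rpl3l at day 8 was 10.77 and 10.26 in controls against 10.77, 10.70, 11.03 and 10.73, a difference of 0.29 ± 0.15. Without the first control it was 0.55 and without the second 0.04, and with median scaling 0.16.

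Between the days, 5 members were higher on all 12 arrays of day 25 than on all 6 of day 8 (background 2.07%): Fau, Rpl7, Rpl10a, Rps14 and Rps19. Fau ran from 10.20 to 10.69 at day 8 and from 11.14 to 11.68 at day 25, 0.96 apart in the means, and Rps19 from 10.04 to 10.61 and from 10.64 to 11.16. Rpl27a, a dim member, was lower on all arrays of day 25 (background 3.41%), at 7.20 to 8.15 against 8.24 to 8.89. Unscaled brightness was 110 to 148 on the arrays of day 8 and 46.6 to 85.4 on those of day 25, so day and array level cannot be told apart, and no test was run.

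Several members are read by more than one probe set, and those did not always move alike. Of the 101 probe sets of the 47 genes, 88 passed the filter, and 2 passed a test over all 27022 probe sets at day 25 without PE (background 2.18%). Both were of type x_at, whose probes may bind several genes. The first was the dimmest of the probe sets of Rpl7, averaging 9.42 over all arrays. It was at 9.01, 8.97 and 8.95 in control and 9.80, 9.97 and 10.09 in SRFHKO hearts, and rose by 0.98 ± 0.20 (limma adjusted p = 0.0164). The brightest probe set of Rpl7, also of type x_at, differed there by 0.12 ± 0.09 (limma adjusted p = 0.504), at 11.87, 11.97 and 11.86 against 11.98, 12.11 and 11.97. With the mean of all its probe sets in place of the brightest, Rpl7 was the 1 member that passed in that contrast, with 0.48 ± 0.10 (limma adjusted p = 0.0196, background 2.47%). The other was a second probe set of Rps9, whose brightest one differed by -0.09 ± 0.09.

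That second probe set of Rps9 fell into 2 separate ranges. On 4 arrays it lay between 5.56 and 5.65 and on the other 14 between 9.40 and 10.52. The 4 were all control hearts of day 25, replicates 1 and 2 without PE and replicates 1 and 3 with PE. The remaining 2 control hearts of day 25 were at 9.40 and 9.57, and all 10 SRFHKO hearts and both day 8 controls at 9.69 or more. The difference was 3.35 ± 0.86 without PE (limma adjusted p = 0.0461) and 3.15 ± 0.86 with PE (limma adjusted p = 0.0900). The 4 low arrays had an unscaled brightness of 52.5 to 68.5, within the 46.6 to 75.3 of the other 2. The brightest probe set of Rps9 showed no such step on any array. This probe set was singled out after its values were seen.

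**Figure D5:**
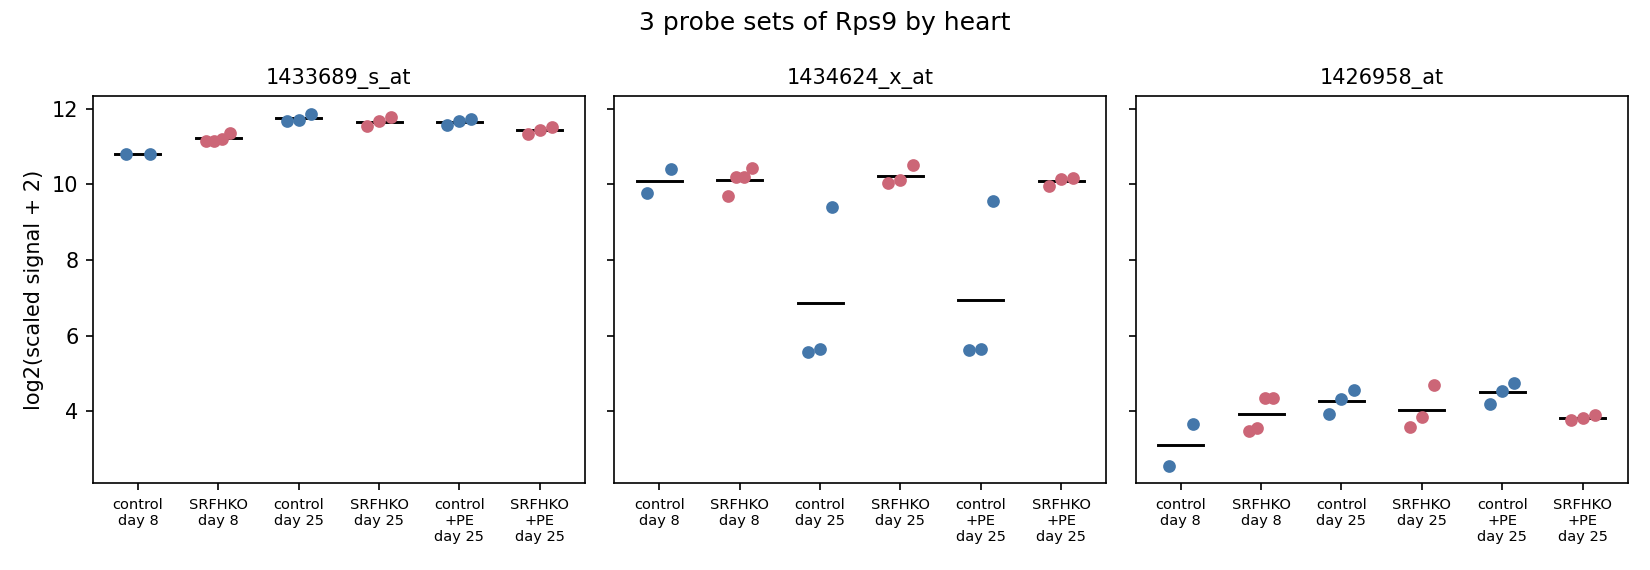
The 3 probe sets of Rps9 by group, as log2(scaled signal + 2), 1 point per heart with the group mean as a bar, control in blue and SRFHKO in red. The brightest (left) stays between 10.80 and 11.87 on all arrays, the second (middle) is at 5.56 to 5.65 in 4 control hearts of day 25, and the third (right) is near the filter's limit of 3.58.

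Probe sets shared with another gene gave values close to those of the members' own. Of the 110 that carry a ribosomal protein symbol beside others, 101 passed the filter. Their median for PE in SRFHKO hearts was -0.16, with 94 lower, and for genotype at day 25 with PE -0.13, with 82 lower. At day 8 it was 0.10, with 76 higher, and 1 of the 101 passed the test over all 27022 probe sets (background 0.17%). That probe set, shared by Rps7 and Gm7285, was at 10.60 and 10.71 in the controls and 11.13, 11.15, 11.04 and 11.17 in SRFHKO hearts, a difference of 0.46 ± 0.08 (limma adjusted p = 0.0275). These probe sets cannot be assigned to 1 gene.

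The machinery that makes and uses ribosomes was examined through lists given beside the members. Of 43 measured ribosome biogenesis factors 3 rose and 0 fell in SRFHKO hearts at day 25 without PE (background 2.48%), with a list median of 0.05. They were Brix1 (0.51 ± 0.10, limma adjusted p = 0.0143) and Ebna1bp2 (0.49 ± 0.11), which assemble the large subunit, and Nip7 (0.57 ± 0.12), a factor of rRNA processing. Of 29 translation initiation factors 2 rose and 0 fell: Eif2s2 (0.47 ± 0.09), the beta subunit of eIF2, and Eif4a1 (0.48 ± 0.11), the helicase that unwinds 5′ leaders. Other measures differed between the same hearts without overlap. Summed cardiomyocyte markers were at 82426 to 99120 in SRFHKO and 106792 to 118663 in control hearts. Summed endothelial markers were at 1350 to 1557 against 1605 to 2152, with the endothelial junction gene Cldn5 falling by 0.81 ± 0.19 (limma adjusted p = 0.0309), and the 3′ to 5′ Gapdh ratio was 0.820 to 0.835 against 0.868 to 0.945. Their part in these calls was not tested. None of 15 RNA polymerase I genes, 9 elongation factors or 24 genes of mTOR and S6 kinase signalling passed there by limma, with 1, 4 and 3 of them at an unadjusted p under 0.05, which 18.4% of all genes reached.

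With PE the genotype contrast gave no call in those 5 lists by limma, with 3, 4, 1, 3 and 4 members at an unadjusted p under 0.05 in biogenesis, initiation, RNA polymerase I, elongation and mTOR genes, where 14.7% of all genes reached it. PE within SRFHKO hearts gave none either, with 5, 4, 1, 0 and 1, where 10.9% of all genes did. The biogenesis list had a positive median in both, 0.06 in each, while the ribosomal proteins had medians of -0.14 and -0.16. The difference between the lists was not tested.

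Mitochondrial ribosomal proteins, 76 measured, translate the messages of the mitochondrial genome and belong to a separate ribosome. The values of this list are given with the common trimmed mean only, so their dependence on scaling is not shown. For genotype with PE they had a median of -0.21, with 70 lower where 50.5% of all genes were. Of the 76, 2 passed, against 1.66% of all genes: Mrps35 (-0.94 ± 0.20, limma adjusted p = 0.0229) and Mrps28 (-0.61 ± 0.15, limma adjusted p = 0.0455), both lower. For PE in SRFHKO hearts the median was -0.15, with 68 lower where 51% of all genes were, and none called by limma (16 at an unadjusted p under 0.05, which 10.9% of all genes reached). At day 25 without PE the median was -0.09, with 50 lower, and again 2 of 76 passed, against 2.48% of all genes: Mrps35 fell by 0.85 ± 0.20 and Mrpl33 rose by 0.64 ± 0.16. The cardiomyocyte marker Myl3, ventricular essential light chain, fell in the same genotype contrasts, by 0.73 without PE and by 0.81 with PE. Summed signal of the cardiomyocyte markers under PE was 93604 to 112902 in controls, above the 80934 to 86533 of SRFHKO hearts with no overlap, and its part in the ribosomal protein values was not tested.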

How the data were processed

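Ventricular RNA of 18 mice was measured on Affymetrix arrays. Per the labels' protocols, total RNA extracted with Trizol was labelled with biotin. The deposited intensity of 45101 probe sets, on a linear scale, came from GCOS, per the submitters' processing notes; the version, signal algorithm and scaling were not given in the sources used here. Trimmed means (2% cut at each end) of 46.6 to 148 show that arrays had not been brought to 1 level. Each array was therefore scaled here to the common trimmed mean of 90.6, 2 was added and log2 taken, so a log2 difference understates changes of dim genes. Symbols came from the platform annotation. Control probe sets (64) and those whose mean lay under the 40th percentile (log2 3.58) were left out, and each gene was read from its brightest probe set with 1 symbol, 14 members from a type (_x_at) whose probes can match other transcripts.

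All 18 arrays entered a single linear model, with a mean for each group, in limma 3.58.1 (R 4.3.3) with an intensity trend. The 2 controls of day 8 thus borrow the other groups' spread. Tests were two-sided, with Benjamini-Hochberg adjustment across 12616 genes and a threshold of 0.05. Errors are standard errors unless SD is written, and the number of arrays limits the precision. The 3 members with the smallest p per contrast are named, plus a fixed set of reference genes and paralogues; a list's called genes are named up to 4. The members and lists were chosen with earlier results of these data known. The fit was tested on simulated data. A planned test of Rpl3l against Rpl3 was not run, as Rpl3 is read only by shared probe sets. Deviations of same-numbered replicates correlated by -0.09 to 0.09, and 0 of 14 pairs exceeded 0.1. Unscaled brightness, however, was highest in replicate 2 and lowest in replicate 3 in each of the 4 groups of day 25. Whether same-numbered hearts were handled together is not given, so a pairing is neither shown nor excluded.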

Additional observations from a re-analysis of the deposited data

How the results depend on the processing

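The count of called members stayed at 0 in all 7 comparisons under quantile normalization, an added value of 16 or none (with a floor of 1), no filter, the compared groups alone and array brightness as a covariate. It became 5 for genotype at day 25 without PE with median scaling, 1 (Rpl7) there with the mean of all probe sets of a gene, and between 0 and 1 at day 8 on leaving out 1 heart. Allowing combined suffix letters added 0 members. Scaling moved the members' medians most. Quantile normalization gave 0.13, 0.0074 and -0.070 for genotype at day 25 without PE, with PE, and PE in SRFHKO hearts. Median scaling gave -0.055 at day 8, 0.24 and -0.011 for genotype at day 25 without and with PE, 0.14 in control hearts given PE, -0.23 in the PE interaction and 0.30 in the day interaction. Setting _x_at probe sets aside gave 0.18 at day 8, and brightness as a covariate 0.12 at day 25 without PE. On leaving out 1 heart the median ran from -0.034 to 0.19 at day 8 and from -0.16 to 0.019 for the interaction of day and genotype. Signs reversed for Rps14 (genotype with PE, quantile normalization, 0.038), Rplp2 (genotype without PE, median scaling, 0.0088) and Rpl3l (median scaling: PE in control hearts 0.093, day interaction 0.31). With the mean of probe sets Rps9 became 0.75 for genotype with PE and 0.59 for the day interaction, since its second probe set enters. With shared probe sets added, chosen after seeing the data, 72 genes were read, none passed, and Rpl39 reversed to -0.069 in the PE interaction. On leaving out 1 heart Rpl3l ran from -0.30 to 0.21 in the day interaction and from -0.13 to 0.059 for PE in control hearts. The cause of the other changes was not tested. Same-numbered hearts are not shown to be paired; with the replicate number as a block the count of called members was 0 in all comparisons, and the median for PE in SRFHKO hearts was -0.16.

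The precision is limited by groups of 2 to 4 hearts and, for 9 members, by dim probe sets.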

Other observations

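Dixon's check for a stray heart in the group of 4 found none among 45 members, where chance would flag about 1 in 20.

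Besides the 2 probe sets of Rpl7 already described there is one of type a_at, which measured 11.03, 10.94 and 11.05 in control and 11.32, 11.47 and 11.27 in SRFHKO hearts at day 25 without PE, a difference of 0.34 ± 0.09 (limma adjusted p = 0.0633). With PE its groups were at 11.19, 11.27 and 11.19 against 11.20, 11.07 and 11.07, a difference of -0.10 ± 0.09.

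The 2 members under the filter were near the floor of the arrays. Rps16 lay between 1.15 and 3.02 and Rpl39l between 1.41 and 5.03, and neither was tested.

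Probe signal for 18S ribosomal RNA, read by a control probe set on the array, was 718 to 1517 in control, 885 to 1019 in SRFHKO, 945 to 1896 in control hearts with PE and 633 to 1731 in SRFHKO hearts with PE, all of day 25 and all overlapping. How much ribosomal RNA is labelled depends on the preparation of each sample, so these values describe the samples and not the ribosomes.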
